A study of Homo sapiens with 11 samples.

Results

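Interferon-stimulated genes are genes that cells switch on when interferon binds its receptor. A set of 48 of them, chosen by gene symbol, was followed here through 11 RNA-seq libraries of HEC50B, a human endometrial cancer cell line. Each symbol was matched by Ensembl ID to 1 of the 57736 rows of the deposited count table (RIGI is also known as DDX58). Of the 48 genes, 43 had a count in at least 1 library. The other 5 (IRF7, UBE2L6, MX2, CMPK2 and EPSTI1) were at 0 throughout.

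The cells differ in treatment and in PPP2R1A, which encodes a scaffold of the PP2A phosphatase. The parental cells carry PPP2R1A R183W, and the comparator line had its PPP2R1A returned to wild type (WT) by CRISPR; the labels do not say whether it is 1 clone. Per the labels, each line received vehicle (KAT6A active) or 50 µM WM1119 (KAT6A inhibited) for 4 days. WM1119 blocks KAT6A, an enzyme that acetylates histone lysines. There were 3 libraries each of R183W vehicle, WT vehicle and WT WM1119 and 2 of R183W WM1119. No interferon was added in any group, as far as the labels say.

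Type I and type III interferons act through receptors coupled to the kinases JAK1 and TYK2. These lead to the complex ISGF3, which includes STAT2 and IRF9 and binds a promoter element called the ISRE. Interferon gamma acts instead on promoters with the GAS element. Several products of this response, among them STAT2, IRF9 and the RNA sensors, are themselves parts of the pathway, and tumour cells can hold part of the gene set at a standing level without added interferon.

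Promoters of 8 members whose RNA was lower in R183W cells under vehicle, taken from several roles, are shown first because their windows hold letters of the element through which ISGF3 is known to act. RefSeq windows (GRCh38.p14, 250 bases before to 50 after a start site) were given for 39 of the 48 members. The core searched was GAAANNGAA, or TTCNNTTTC on the other strand, and it is in capitals below; overlapping matches run together. Each stretch is read along the strand of its gene, 5′ to 3′, with 20 bases on either side of the outermost matches.
IFI44L, chr1:78620264-78620403, plus strand: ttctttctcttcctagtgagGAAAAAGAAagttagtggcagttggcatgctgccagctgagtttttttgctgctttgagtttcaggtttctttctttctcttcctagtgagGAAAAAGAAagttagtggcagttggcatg
DDX60, chr4:168318777-168318860, minus strand: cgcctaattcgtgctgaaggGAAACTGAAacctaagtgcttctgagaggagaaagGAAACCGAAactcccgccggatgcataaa
IFIT3, chr10:89332410-89332507, plus strand: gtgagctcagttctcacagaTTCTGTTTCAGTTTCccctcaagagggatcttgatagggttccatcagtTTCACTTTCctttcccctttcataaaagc
IFIT1, chr10:89392488-89392549, plus strand: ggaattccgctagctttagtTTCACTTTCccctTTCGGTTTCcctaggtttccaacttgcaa
ISG15, chr1:1013364-1013424, plus strand: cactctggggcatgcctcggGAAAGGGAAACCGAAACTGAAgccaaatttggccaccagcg
IFI6, chr1:27672257-27672368, minus strand: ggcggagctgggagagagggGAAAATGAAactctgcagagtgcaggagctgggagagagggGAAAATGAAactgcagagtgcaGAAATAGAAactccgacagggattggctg
BST2, chr19:17405726-17405780, minus strand: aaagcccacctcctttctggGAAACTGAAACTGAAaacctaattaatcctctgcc
PARP9, chr3:122564312-122564360, minus strand: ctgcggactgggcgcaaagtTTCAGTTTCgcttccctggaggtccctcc
PLSCR1, chr3:146544658-146544706, minus strand: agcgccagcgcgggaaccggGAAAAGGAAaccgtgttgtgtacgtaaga

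The PARP9 stretch is also that of DTX3L, read from the opposite strand, so the pair of genes has a single match between them. The choice is not a ranking, and IFIH1, IFI16 and RSAD2 are among other lower members with the core. PLSCR1 is shown because its window holds the core although its RNA was not called between the lines. The core was found in the windows of 27 of the 39 members (69.2%) and of 9.86% of all 27305 genes in the RefSeq table. Among members lower in R183W cells under vehicle it was found in 16 of 18 (88.9%), and among the other members in 11 of 21 (52.4%). The others include members with too few counts to test, so theirs is not the share among members found alike in the lines. The GAS letters TTCNNNGAA, which read the same on both strands, were in 12 of 39 members (30.8%) and 9.38% of all genes. They were in 4 of the 18 lower members (22.2%) and 8 of the 21 others (38.1%). A match describes the letters of the window only; binding was not measured.

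**Figure D1:**
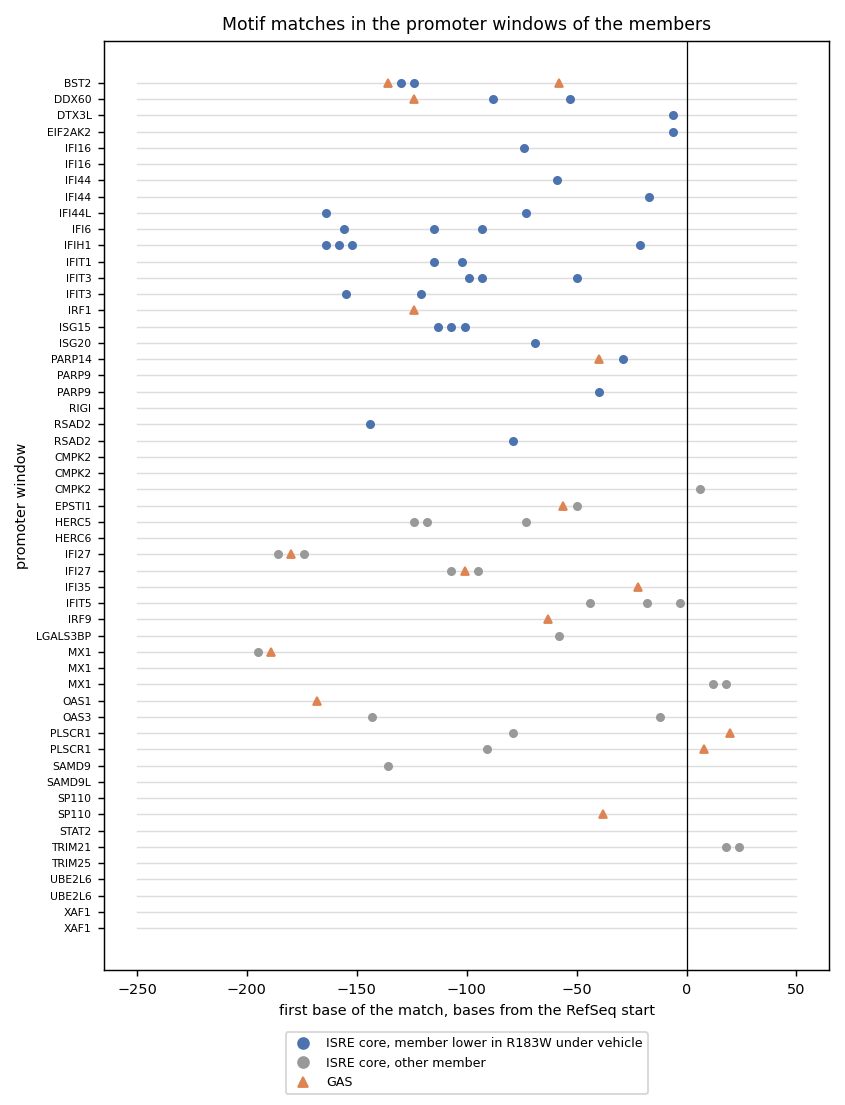
Positions of ISRE core and GAS matches in the RefSeq promoter windows of the members; the x axis gives the distance in bases from the start site and each line is 1 of 53 windows, some genes having several. The core is present in windows of 27 of the 39 members with a window, and GAS in those of 12.

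The shallowest library (WT WM1119 library 3) held 2609922 counts and the deepest (R183W vehicle library 1) 6065149. Levels are in CPM, the usual count scaled to library size, here with TMM factors. Where a gene has no count, its level may still be as high as 1.15 CPM at the lower depth and 0.495 CPM at the higher (3 counts; counting error only). WT WM1119 library 3 stood apart, with correlations of log CPM of 0.917 and 0.937 to its group, across genes, where the other replicate pairs had 0.957 to 0.975. The counts cannot show the edited codon, nor KAT6A activity. The line expressed the epithelial genes EPCAM, KRT8 and KRT18 and the Muellerian factors PAX8, HOXA10 and EMX2, together with VIM, CDH2, COL1A1 and PDGFRA. KRT19, CDH1, ESR1 and COL1A2 were near 0, and SOX17, PGR, COL3A1 and DCN at 0. Some of these also differed between groups: EPCAM was lower in R183W than in WT cells under vehicle (38.4 ± 2.18 against 59.7 ± 3.81 CPM, n = 3 each) and rose with WM1119 in R183W cells to 80.8 ± 5.82 (n = 2), KRT8 and KRT18 were higher in R183W cells under vehicle, and COL1A1 was called in all 5 comparisons. Their part in the results was not tested. Of 9 immune markers, 4 were at 0 everywhere, and their summed level was 0 to 0.771 CPM per library.

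Without added interferon, as far as the labels say, the set was active in part. At a mean of 1 CPM or more, 28 members were seen in R183W cells under vehicle and 28 with WM1119, against 37 and 39 in WT cells. At 10 CPM or more the numbers were 15, 16, 23 and 22. Per kilobase of exon, the order of the most abundant members differed between groups. In R183W vehicle libraries LGALS3BP was highest, with a mean level of 42.3 CPM per kilobase, ahead of TRIM25 (25.0), ISG15 (14.8) and IFI6 (13.3). In WT vehicle libraries ISG15 (43.1), IFI6 (42.9) and LGALS3BP (39.2) were close, followed by TRIM25 (25.2). A filter on low counts left 34 members for testing. Besides the 5 genes at 0, the filter removed DHX58, IFIT5, OAS2, MX1, IFI27, SAMD9L, TRIM21, TRIM22 and XAF1, none of which averaged over 2.08 CPM in any group.

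**Figure D2:**
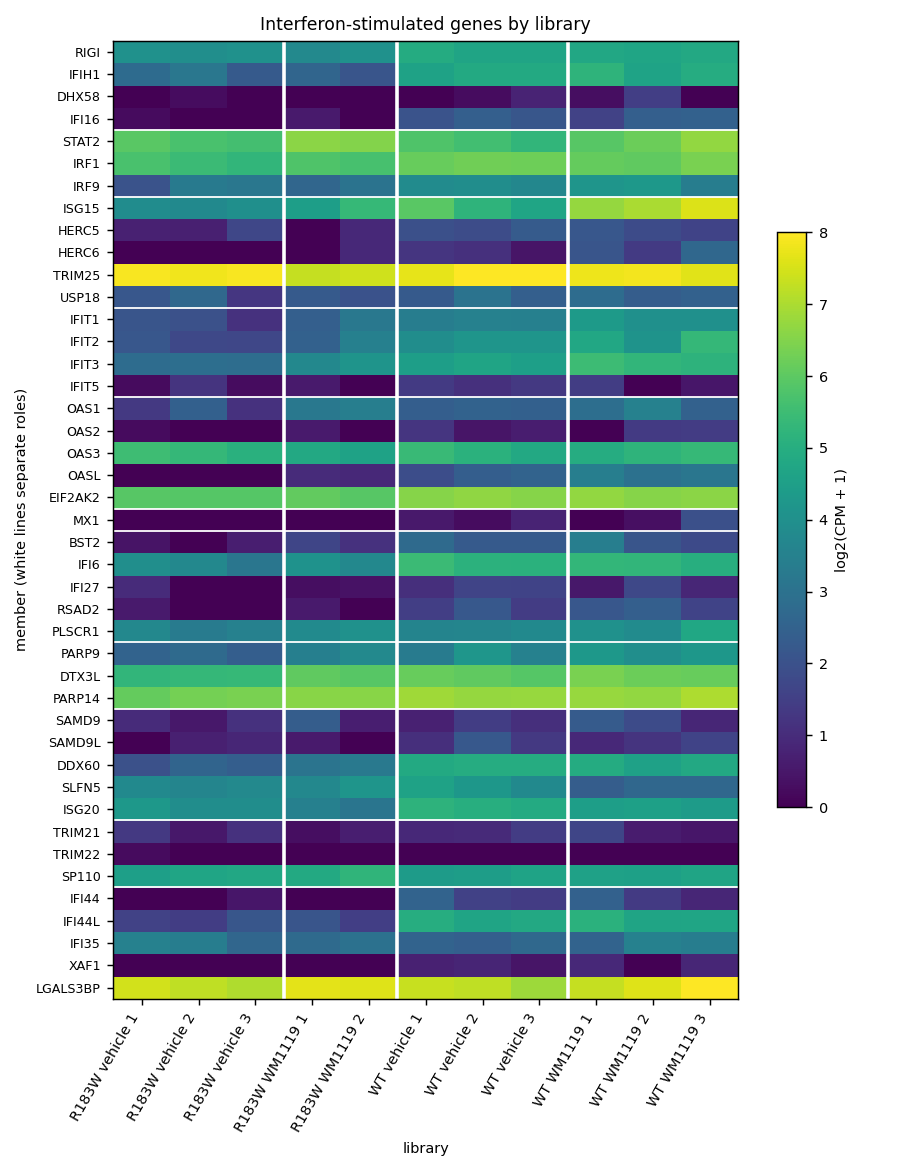
Level of each of the 43 members with a count (rows, ordered by role) in each of the 11 libraries (columns), as log2(CPM + 1) on the colour scale. Darker colours are lower levels. Rows of IFIH1, IFIT1, IFIT2, IFIT3, IFI6, DDX60 and IFI44L are darker in all 5 R183W libraries than in all 6 WT libraries, and those of TRIM25 and LGALS3BP are bright throughout.

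The first comparison set R183W against WT cells under vehicle. Of the 48 members, 20 were lower and 0 higher in R183W cells (34 tested; 25 at an unadjusted p under 0.05), where 6.17% of all 13980 genes tested were called lower and 6.82% higher. DESeq2 called 22 lower and 0 higher. The lower members covered all 3 tested sensors, all 3 tested IFIT genes, all 3 ADP-ribosylation genes, 3 of 4 membrane and mitochondrial effectors, and 2 of 4 each of the OAS and PKR group and the RNA restriction group. Among them IFI16, OASL, BST2, RSAD2 and IFI44 were near 0 in R183W cells and passed the count filter only through WT libraries. Being tested thus already depended on their WT level, and the counts above include them. The median log2 difference of the tested members was -1.02, against -0.01 for all genes. It was the same with genes at 0 in R183W cells set to a floor of 3 counts over the group. All values below are R183W less WT on the log2 scale with the standard error (SE), and p-values are from edgeR's quasi-likelihood test, adjusted by Benjamini-Hochberg over all genes tested. In bulk RNA, fewer expressing cells and less RNA per cell cannot be told apart.

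**Figure D3:**
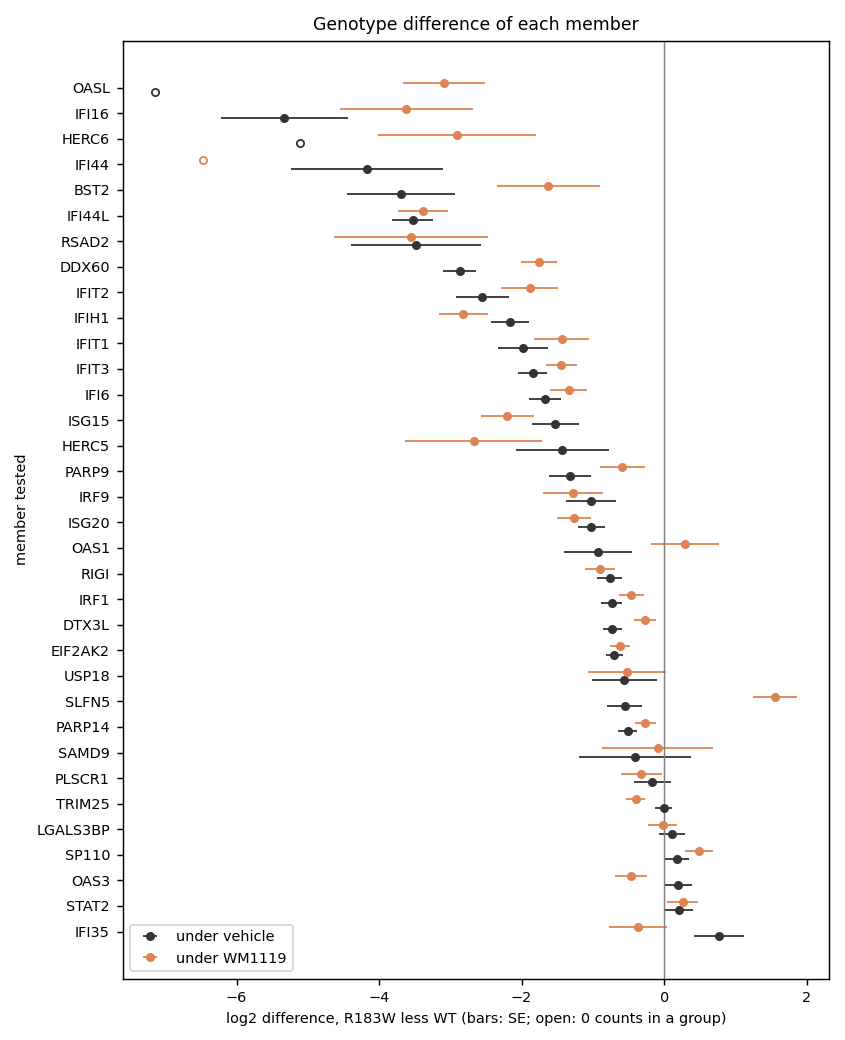
Log2 difference, R183W less WT, of the 34 tested members under vehicle and under WM1119, with standard errors; open symbols mark members with 0 counts in a group, whose fitted values are no measure of size. Most points lie left of 0 under both treatments (medians -1.02 and -1.08), and SLFN5 lies right of 0 only under WM1119.

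The smallest adjusted p-values belonged to DDX60 and IFI44L, which were expressed at a few CPM in R183W cells. IFI44L, an interferon-induced protein of uncertain function, read 1.98, 1.71 and 3.45 CPM in the R183W vehicle libraries and 31.0, 24.8 and 27.3 in the WT vehicle libraries. No R183W library came near the WT range, and the difference was -3.53 (SE 0.29, adjusted p = 3.33e-06). DDX60, a helicase that assists RNA sensing, read 2.97, 4.92 and 4.26 CPM against 27.9, 30.1 and 30.3, a difference of -2.87 (SE 0.23, adjusted p = 2.70e-06). Its WT libraries were close together (29.4 ± 1.3 CPM, SD, n = 3). OASL, an OAS relative that binds RIG-I, had 0 counts in all 3 R183W vehicle libraries and 2.68, 4.19 and 4.89 CPM in WT cells, 60 counts in all. Against a floor of 3 counts over the group it was 20.8-fold lower (adjusted p = 0.000211 in edgeR). Folds given against this floor leave out the counting error of the group with counts and the spread between libraries.

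All 3 tested sensors of foreign nucleic acid were lower in R183W cells. IFIH1, which encodes the sensor MDA5 for long double-stranded RNA, read 5.94, 7.92 and 3.85 CPM against 23.4, 28.0 and 28.0, a difference of -2.17 (SE 0.27, adjusted p = 0.000128). RIGI, the sensor of RNA with a triphosphate end, read 15.7, 14.6 and 15.6 CPM against 29, 24.8 and 24.3. Its difference was smaller, -0.76 (SE 0.17, adjusted p = 0.0104), and the groups did not overlap. IFI16, a DNA sensor, read 0.165, 0 and 0 CPM against 3.12, 4.38 and 3.39, a difference of -5.33 (SE 0.89, adjusted p = 0.00147). A single R183W library was above 0, so that size is imprecise. DHX58, the regulatory member of the RIG-I family, was not tested: it read 0, 0.214 and 0 CPM against 0, 0.191 and 0.753, all within reach of a few counts.

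The transcription factors were mixed. IRF1, an activator shared by type I and gamma interferon signalling, read 51.0, 43.0 and 37.7 CPM against 70.3, 76.0 and 73.8, a difference of -0.74 (SE 0.15, adjusted p = 0.00541). IRF9, the DNA-binding part of ISGF3, read 3.13, 8.56 and 8.11 CPM against 13.6, 14.3 and 12.0. Its groups did not overlap, but R183W vehicle library 1 was far below the other two, and the difference of -1.03 missed the threshold (SE 0.35, adjusted p = 0.0701). STAT2, the subunit that activates transcription, read 60.4, 50.9 and 47.9 CPM against 54.2, 46.3 and 37.6; the ranges overlapped (0.21, SE 0.20, adjusted p = 0.533). IRF7, which amplifies the type I response, had 0 counts in all 11 libraries.

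IFIT proteins bind foreign RNA and block its translation. IFIT3 read 6.1, 6.42 and 6.29 CPM in R183W and 21.2, 24.6 and 22.0 in WT cells, a difference of -1.85 (SE 0.20, adjusted p = 4.19e-05). IFIT2 read 3.46, 2.35 and 2.23 CPM against 14.1, 17 and 17.1, a difference of -2.55 (SE 0.37, adjusted p = 0.000562). IFIT1, which recognises RNA caps that lack a methyl group, read 3.30, 3.00 and 1.22 CPM against 9.59, 10.5 and 10.2, a difference of -1.98 (SE 0.35, adjusted p = 0.00232). For each of these genes the highest R183W library lay far below the lowest WT library. IFIT5 stayed at or under 1.56 CPM in the vehicle libraries and was not tested.

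EIF2AK2 encodes PKR, the kinase that halts translation on double-stranded RNA. It read 60.1, 58.0 and 57.8 CPM in R183W cells against 92.6, 100.4 and 93.1, a difference of -0.70 (SE 0.12, adjusted p = 0.0018). The OAS enzymes make the activator of RNase L. OAS1 (2.40 ± 1.8 against 4.51 ± 0.26 CPM, SD, n = 3 each) and OAS3 (39.0 ± 6.1 against 34.2 ± 7.0) overlapped between the lines, with adjusted p = 0.226 and 0.559 in edgeR. Neither was called, and OAS2 was too low to test.

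ISG15, a ubiquitin-like modifier, read 13.9, 13.1 and 15 CPM in R183W and 61.1, 35.6 and 25.0 in WT cells. All WT libraries were higher but spread widely, and the difference was -1.53 (SE 0.33, adjusted p = 0.00786). HERC5, a ligase of its cycle, HERC6 and the protease USP18 were low, at or under 7.24 CPM in vehicle libraries, and none was called. HERC6 had 0 counts in R183W vehicle and 14 in WT vehicle libraries (4.86-fold lower against the floor of 3 counts, adjusted p = 0.0506 in edgeR). TRIM25, a ubiquitin and ISG15 ligase that acts on RIG-I and also responds to estrogen, was among the 4 most abundant members; its 243, 228 and 243 CPM against 210, 255 and 252 gave a difference of -0.01 (SE 0.12, adjusted p = 0.981).

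Among membrane and mitochondrial effectors, IFI6, a small protein of the endoplasmic reticulum and mitochondria, read 14.5, 12.2 and 7.91 CPM against 43.3, 34.3 and 33.7, a difference of -1.67 (SE 0.22, adjusted p = 0.000247). BST2, the tetherin that holds budding virus at the cell surface, read 0.330, 0 and 0.608 CPM against 5.80, 3.81 and 3.76, a difference of -3.69 (SE 0.76, adjusted p = 0.00569). RSAD2, which encodes viperin, was also lower, at 0.165 ± 0.29 against 2.37 ± 1.1 CPM (n = 3 each; adjusted p = 0.0224 in edgeR). PLSCR1, the scramblase whose promoter is shown above, read 10.5 ± 1.6 and 11.9 ± 0.98 CPM and was not called (adjusted p = 0.717 in edgeR). MX1, a GTPase against viral nucleocapsids, and IFI27 were not tested. MX1 had 0 counts in R183W vehicle libraries and 7 in WT vehicle libraries. That is 2.43-fold lower against the floor of 3 counts, but the 7 counts are too few to set a least fold.

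The ADP-ribosylation group was lower throughout, by smaller amounts. DTX3L, a ubiquitin ligase that pairs with PARP9, read 37.3, 39.0 and 39.9 CPM against 69.6, 64.8 and 58.3, a difference of -0.73 (SE 0.13, adjusted p = 0.00299). PARP9 itself read 4.94 ± 0.77 against 12.3 ± 4.5 CPM (n = 3 each), a difference of -1.32 (SE 0.29, adjusted p = 0.00881). PARP14, the most abundant of them, read 68.3, 79.8 and 82.1 CPM against 115.8, 105.4 and 107.1, a difference of -0.51 (SE 0.13, adjusted p = 0.0197).

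In the RNA restriction group, ISG20, an exonuclease for single-stranded RNA, read 18.1, 14.1 and 14.2 CPM against 35.3, 31.1 and 28.4, a difference of -1.02 (SE 0.19, adjusted p = 0.00297). SLFN5, a Schlafen family protein, read 12.9, 11.3 and 12.6 CPM against 23.7, 17.7 and 13.0. Its WT libraries spread widely, and the difference of -0.56 was not called (SE 0.25, adjusted p = 0.165). IFI44, the relative of IFI44L, was lower at 0.135 ± 0.23 against 2.84 ± 1.8 CPM (n = 3 each; adjusted p = 0.0216 in edgeR). LGALS3BP, a secreted glycoprotein, read 175, 149 and 131 CPM against 159, 149 and 113; the groups overlapped (0.11, SE 0.18, adjusted p = 0.741). SP110, a nuclear body protein, IFI35 and SAMD9 were also not called. XAF1, a cofactor of cell death, was not tested. It had 0 counts in R183W vehicle and 9 in WT vehicle libraries, 3.12-fold lower against the floor of 3 counts but too few to set a least fold. SAMD9L, TRIM21 and TRIM22 averaged 0 to 2.08 CPM in the 4 groups. With each library left out in turn, 16 of the 20 calls were kept. IFI44 lost its call without R183W vehicle library 1 or 2, RSAD2 without R183W vehicle library 2 or 3 or WT vehicle library 2, PARP9 without WT vehicle library 2, and PARP14 without any vehicle library but R183W vehicle library 3 (largest adjusted p = 0.103, 0.0994, 0.0594 and 0.0946 in edgeR).

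The same genotype comparison was made in cells given WM1119, on other libraries of the same lines and within the same fit. Genotype and any other difference between these lines cannot be told apart in either comparison. Members were lower in 13 cases and higher in 1 (34 tested), where 3.92% of all genes were called lower and 4.64% higher. The 13 lower members were all among the 20 lower under vehicle, which makes 13 of 20 and 13 of the 14 called here. They were IFIH1, RIGI and IFI16 among the sensors, IFIT1, IFIT2 and IFIT3, OASL and EIF2AK2, ISG15, IFI6, DDX60, ISG20 and IFI44L. Of these, IFI16 and OASL passed the filter only through WT libraries. The overlap of calls over all genes was not counted. The median log2 difference was -1.08, against -0.02 for all genes.

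IFI44L read 3.36 and 1.81 CPM in R183W and 33.4, 24.7 and 25.2 in WT cells with WM1119, a difference of -3.38 (SE 0.35, adjusted p = 4.66e-05). IFIH1 read 5.04 and 3.32 CPM against 36.2, 23.9 and 29.7, a difference of -2.82 (SE 0.34, adjusted p = 0.000158). DDX60 read 7.44 and 8.46 CPM against 29.7, 22.9 and 27.7, a difference of -1.75 (SE 0.25, adjusted p = 0.00079). In all 3 genes the lines stayed clearly apart. IFIT3 read 12.2 and 16.6 CPM against 44.1, 37.8 and 35.1, a difference of -1.45 (SE 0.22, adjusted p = 0.00103). ISG15 read 21.4 and 40.2 CPM against 106, 126 and 192, without overlap, a difference of -2.20 (SE 0.37, adjusted p = 0.00215).

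The other members called here had smaller differences or low counts. IFI6 read 15.8 and 12.4 CPM against 38.2, 37.8 and 31.4, a difference of -1.34 (SE 0.26, adjusted p = 0.00612). EIF2AK2 read 67.2 and 59.8 CPM against 104, 92.2 and 95.8, a difference of -0.62 (SE 0.14, adjusted p = 0.0136). RIGI read 12.7 and 15.7 CPM against 27.0, 24.9 and 27.7, a difference of -0.90 (SE 0.21, adjusted p = 0.0148). All R183W libraries were below all WT libraries for these genes. ISG20 read 10.1 and 7.55 CPM against 21.5, 22.6 and 19.8, a difference of -1.27 (SE 0.24, adjusted p = 0.00506). IFIT2 read 4.56 and 10.3 CPM against 26.6, 16.4 and 38.8, and IFIT1 4.32 and 8.15 against 19.5, 15.2 and 15.3, with differences of -1.88 (SE 0.40) and -1.44 (SE 0.38) and adjusted p = 0.01 and 0.0313 in edgeR. OASL read 0.960 and 0.906 CPM against 9.66, 6.94 and 7.84, a difference of -3.09 (SE 0.57, adjusted p = 0.0064). IFI16 read 0.480 and 0 CPM against 1.98, 4.37 and 4.54, a difference of -3.62 (SE 0.93, adjusted p = 0.0279). IFI44 had 0 counts in both R183W WM1119 libraries and 29 in WT WM1119 libraries, 6.65-fold lower against the floor of 3 counts, and was not called.

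SLFN5 went the other way. It read 12.2 and 16.9 CPM in R183W and 4.17, 5.39 and 5.37 in WT cells with WM1119, a difference of 1.55 (SE 0.31, adjusted p = 0.00744), and it was the 1 member called higher in R183W cells. Members lower under vehicle but not called with WM1119 were BST2, RSAD2, IRF1, PARP9, DTX3L, PARP14 and IFI44; the change in their difference was not called in any case (interaction, below). With each library left out in turn, 4 of the 14 calls were kept, those of DDX60, IFI44L, IFIH1 and IFIT3. The other 10 were lost without R183W WM1119 library 1, library 2 or either, IFI16 also without WT WM1119 library 2, and IFIT1 without WT WM1119 library 1 or 2 or the second WT vehicle library (adjusted p up to 0.278 in edgeR). The count fell without either R183W WM1119 library, where the lone library left is assumed to vary like the other groups. It was 7 in a fit of the 5 WM1119 libraries alone, where calls over all genes were 319, not 1197.

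The second question was what WM1119 did to these genes in each line. In R183W cells it raised 5 members and lowered 1 of the 34 tested (14 at an unadjusted p under 0.05), where 1.99% of all genes rose and 2.65% fell. In WT cells it raised 3 and lowered 1, where 2.33% of all genes rose and 2.53% fell. IFIT3 and STAT2 rose in both lines, which is 2 of the 6 calls in the mutant line and 2 of the 4 in the corrected one. The median log2 change of the tested members was 0.40 in R183W and 0.18 in WT cells, against 0.00 for all genes in R183W cells. The first was 0.11 without R183W WM1119 library 1, where 38 members passed the filter rather than 34. It was 0.40 again with OASL set to the floor of 3 counts and 2 other genes at 0 left out.

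**Figure D4:**
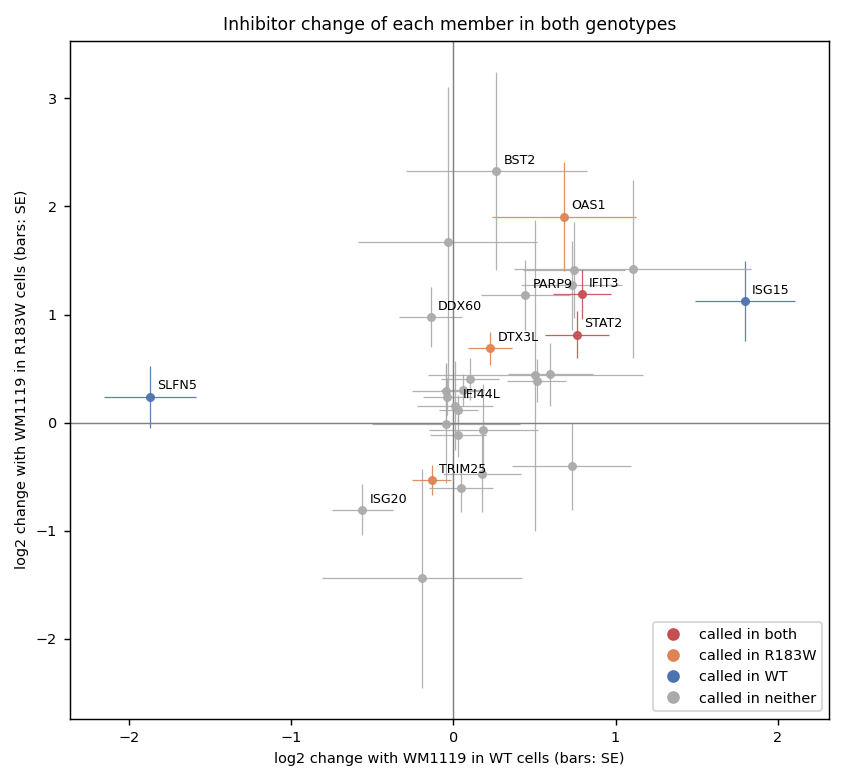
Log2 change with WM1119 in WT cells (x axis) and in R183W cells (y axis) for 31 members with a count in every group, with standard errors; 3 tested members with 0 counts in a group are left out. IFIT3 and STAT2 lie above 0 on both axes, ISG15 lies far to the right, and SLFN5 lies far to the left of all others.

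IFIT3 rose from 6.1, 6.42 and 6.29 to 12.2 and 16.6 CPM in the mutant line, a log2 change of 1.19 (SE 0.23, adjusted p = 0.00915). It rose from 21.2, 24.6 and 22.0 to 44.1, 37.8 and 35.1 CPM in WT cells, a change of 0.79 (SE 0.18, adjusted p = 0.0235). STAT2 rose from 60.4, 50.9 and 47.9 to 96.9 and 90.0 CPM in R183W cells (0.82, SE 0.21, adjusted p = 0.0457). In WT cells it rose from 54.2, 46.3 and 37.6 to 60.2, 73.0 and 102.8 CPM (0.76, SE 0.20, adjusted p = 0.0421). For both genes treated and vehicle libraries did not overlap in either line, and the treated R183W level of IFIT3 remained below the untreated WT level.

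IFIT1 and IFIT2 had positive changes in both lines that were not called. In R183W cells the changes were 1.27 and 1.41, and library 2 of the WM1119 group was higher than library 1 for each (IFIT2 at 10.3 against 4.56 CPM). ISG15 rose in WT cells, from 61.1, 35.6 and 25.0 to 106, 126 and 192 CPM, a change of 1.80 (SE 0.31, adjusted p = 0.00539). The R183W libraries read 13.9, 13.1 and 15 CPM before and 21.4 and 40.2 after, a change of 1.12 that was not called (SE 0.37, adjusted p = 0.109). Whether the lines differ in this response was tested as an interaction and not called.

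Further calls in R183W cells concerned genes of the OAS, ADP-ribosylation and ISG15 groups. OASL went from 0 counts in 3 libraries to 0.960 and 0.906 CPM, 7 counts in all (adjusted p = 0.0253 in edgeR). That is 4.89-fold higher against the floor of 3 counts, but the 7 counts are too few to set a least fold. OAS1 rose from 1.48, 4.49 and 1.22 to 8.16 and 9.66 CPM, a change of 1.91 (SE 0.51, adjusted p = 0.0479). DTX3L rose from 37.3, 39.0 and 39.9 to 65.0 and 59.5 CPM, a change of 0.69 (SE 0.15, adjusted p = 0.02), within the range of untreated WT cells. TRIM25 fell from 243, 228 and 243 to 158 and 172 CPM, a change of -0.53 (SE 0.14, adjusted p = 0.0445). In these genes no treated library overlapped the vehicle libraries. PARP9 (1.18, SE 0.33, adjusted p = 0.0585), DDX60 (0.98, SE 0.28, adjusted p = 0.0611) and ISG20 (-0.81, SE 0.24, adjusted p = 0.0719) missed the threshold.

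SLFN5 fell in WT cells from 23.7, 17.7 and 13.0 to 4.17, 5.39 and 5.37 CPM, a change of -1.87 (SE 0.28, adjusted p = 0.00214). In R183W cells it read 12.9, 11.3 and 12.6 CPM before and 12.2 and 16.9 after. Several members called lower in R183W cells had WM1119 changes in WT cells that were not called. The log2 fold change was 0.01 (SE 0.23) for IFI44L, -0.14 (SE 0.20) for DDX60, 0.18 (SE 0.24) for IFIH1, -0.04 (SE 0.21) for IFI6, 0.03 (SE 0.12) for EIF2AK2 and 0.03 (SE 0.17) for RIGI. LGALS3BP and PARP14, among the most abundant members, were not called in either line.

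**Figure D5:**
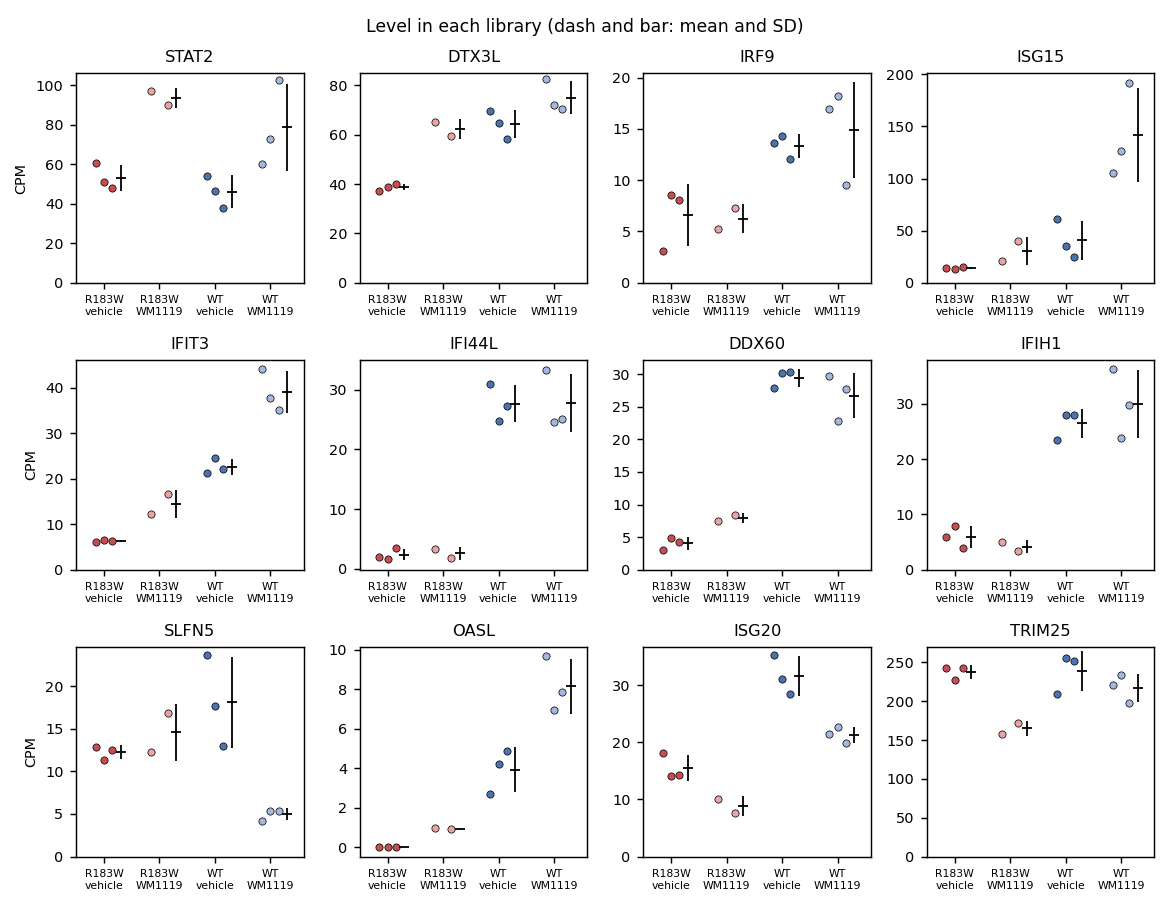
CPM in each library (points) for 12 members in the 4 groups, with the mean and SD beside them. IFI44L and DDX60 separate by line, and SLFN5 is lowest in WT cells with WM1119.

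The interaction subtracts the WM1119 change of WT cells from that of R183W cells, and it was called for 1 member. SLFN5 had a value of 2.11 (SE 0.40, adjusted p = 0.0475). Across all genes, 0.093% were called higher and 0.193% lower. No member was called lower, and 6 of 34 reached an unadjusted p under 0.05; DESeq2 also called 1 member higher and 0 lower. The median over tested members was 0.20. It was -0.0319 without R183W WM1119 library 1, where 38 members passed the filter rather than 34. The SLFN5 call was lost without 9 of the 11 libraries (all but WT vehicle library 3 and WT WM1119 library 3), with an adjusted p of up to 0.317 in edgeR. DDX60, whose genotype difference was -2.87 under vehicle and -1.75 with WM1119, had an interaction of 1.12 that was not called (SE 0.34, adjusted p = 0.252).

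The inhibitor calls rest on few libraries. In R183W cells each of the 6 calls was lost on leaving out a library, IFIT3 only without R183W WM1119 library 2 (adjusted p = 0.176 in edgeR), DTX3L and OASL without any of the 5 R183W libraries, and OAS1, STAT2 and TRIM25 without 7 or 8 of the 11 (adjusted p up to 0.298). Leaving out R183W vehicle libraries 1, 2 and 3 in turn gave counts of 1, 2 and 1, and leaving out R183W WM1119 libraries 1 and 2 gave 1 and 0. The count was 3 with WT WM1119 library 2 removed and 11 with library 3 of that group removed. Calls over all genes moved as well, from 649 with all libraries to 547 and 1600 in these fits. They were 419, 264 and 275 without R183W vehicle libraries 1, 2 and 3. They also fell without either R183W WM1119 library, which leaves a lone library in the group. DESeq2 on all libraries called 9 members, and 975 over all genes. In WT cells ISG15 and SLFN5 kept their calls without any library. IFIT3 lost its WT call on leaving out WT WM1119 library 2 or any of the WT vehicle libraries (adjusted p up to 0.0933 in edgeR). STAT2 lost its WT call on leaving out 9 of the 11 (adjusted p up to 0.172 in edgeR). The WT count was then 2 on leaving out library 2 or 3 of WT vehicle, or WT WM1119 library 2. Calls over all genes were 260, 247 and 272 in these fits, not 680.

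The upstream pathway was examined through 70 genes, 68 of them matched and 47 tested. Interferon genes themselves were at or near 0. Of 10 ligand genes, 8 had no count in any library, IFNE had 4 counts, and IFNL1, a type III interferon, had 12 counts in WT vehicle, 8 in WT WM1119 and 0 in all R183W libraries. The receptor chains were present: IFNAR1 read 64.9 ± 7.48 CPM in R183W vehicle (n = 3), 96.9 ± 10.8 in R183W WM1119 (n = 2), 79.3 ± 2.17 in WT vehicle (n = 3) and 98.5 ± 13.7 in WT WM1119 libraries (n = 3). IFNAR2 read 126 ± 11.6, 144 ± 13.8, 155 ± 9.71 and 201 ± 11.8 CPM in the same order, and TYK2 read 30.3 ± 3.07, 31.6 ± 6.07, 25.7 ± 5.84 and 34.1 ± 3.47.

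Pathway genes differed between the lines in part. Under vehicle 7 were lower in R183W cells (among them JAK1, TRAF3, SP100, HELZ2, GBP1 and TNFSF10) and 1 was higher (STAT3) of 47 tested, beside 6.17% and 6.82% of all genes; DESeq2 called 7 lower and 3 higher. With WM1119 6 were lower (among them IFNAR2, TRAF3, SP100, HELZ2 and TNFSF10) and 0 higher, with 15 at an unadjusted p under 0.05; DESeq2 called 6 lower and 2 higher, and the shares over all genes were 3.92% and 4.64%. TNFSF10, the death ligand TRAIL, read 46.5, 45.4 and 57.4 CPM in R183W vehicle and 227, 219.9 and 195 in WT vehicle libraries, a difference of -2.10 (SE 0.15, adjusted p = 1.22e-06). GBP1, a guanylate-binding protein induced by interferon gamma, read 0.236 ± 0.248 against 3.89 ± 1.09 CPM (n = 3 each; adjusted p = 0.00241 in edgeR). TNFSF10 and GBP1 kept their calls under vehicle on leaving out any 1 library, while those of JAK1, TRAF3 and STAT3 were lost without 8, 7 and 5 of the 11 libraries. With WM1119, the calls of IFNAR2 and SP100 were lost without any 1 of 10. The pathway count of 8 fell to 3 on leaving out R183W vehicle library 1 or WT vehicle library 2, and was 14 on leaving out WT WM1119 library 3. Calls over all genes were 965, 968 and 3151 in these fits, not 1817. The pathway count of 6 with WM1119 fell on leaving out R183W WM1119 library 2, which leaves a lone library in the group. It was again 14 on leaving out WT WM1119 library 3, where calls over all genes were 2895, not 1197.

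With WM1119, 3 pathway genes rose and 0 fell in R183W cells (among them IFITM3 and IL10RB; 12 at an unadjusted p under 0.05, and 4 higher and 0 lower in DESeq2), and in WT cells 3 rose (among them IFITM3 and RNASEH2C) and 1 fell (JAK1). Over all genes 1.99% rose and 2.65% fell in R183W cells, and 2.33% and 2.53% in WT cells. The IL10RB call was lost without 7 of the 11 libraries (adjusted p up to 0.245 in edgeR). Those of JAK1 and RNASEH2C were lost without WT WM1119 library 2 and without library 2 or 3 of WT vehicle (up to 0.117 and 0.104). IFITM3, a membrane protein that blocks virus entry, rose by 1.30 in R183W cells (SE 0.24, adjusted p = 0.00797) and by 0.88 in WT cells (SE 0.22, adjusted p = 0.038); its reads may be shared with close paralogs. IFITM3 lost its call in R183W cells without R183W vehicle library 2 or either WM1119 library (adjusted p up to 0.0855 in edgeR), and in WT cells without 7 of the 11 libraries (up to 0.14). No pathway gene was called in the interaction by edgeR or DESeq2 (4 and 2 at an unadjusted p under 0.05).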

How the data were processed

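The authors deposited counts per gene for 11 HEC50B libraries in 1 table, all of them whole numbers. STAR, RSEM and hg19 are named, without versions or roles, per the submitters' processing notes; if RSEM made the table, its estimated counts were rounded before deposit, which is not stated in the sources used here. Per the labels' protocols, RNA was cleaned on RNeasy columns, treated with DNase I and made into libraries with ScriptSeq Complete Gold, while the molecule field reads polyA RNA. Reads of close paralogs (OAS, IFIT, IFITM) and of overlapping genes may be split between them.

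Rows were named by Ensembl ID (51959 of 57736 matched; unmatched rows held 1.01% of counts). IKBKE and CCL5 were not analysed here. A pathway gene is not reported here, though the pathway counts include it. Members, lists and rules were chosen with earlier results of these data known. The 16 called members with the smallest adjusted p, the 4 most abundant, the sensors and the transcription factors are given per library, the others by group, range or count; pathway genes are named where called, with the receptors, kinases and ligands. edgeR 4.0.16 in R 4.3.3 (TMM, filterByExpr, quasi-likelihood F test, two-sided) was fitted to 4 group means over all 11 libraries, testing 13980 genes that held at least 99.7% of counts in each library; the biological coefficient of variation was 19.6%. A gene was called at a Benjamini-Hochberg adjusted p under 0.05. The steps were tested on simulated counts. Alternatives were DESeq2 1.42.0, RLE factors, no filter, a replicate block, only the groups compared, and each library left out. The labels do not say that replicates are separate cultures, so p-values reflect the spread of these libraries alone, and that spread may be technical. Every replicate pair differed beyond sampling noise (a chi-square of 2.66 to 23.4 for each degree of freedom). RefSeq promoter coordinates are of GRCh38.p14, not of the build of the counts.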

Additional observations from a re-analysis of the deposited data

Results flagged for a closer look

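SLFN5 was the 1 member whose response to WM1119 differed between the lines by the interaction test. The value was 2.11 on the log2 scale (SE 0.40, adjusted p = 0.0475 in edgeR), R183W less WT: all 3 WT WM1119 libraries (4.17 to 5.39 CPM) lay below all WT vehicle libraries (13.0 to 23.7 CPM), while the R183W libraries read 11.3 to 12.9 CPM under vehicle and 12.2 and 16.9 with WM1119. The call was not kept without 9 of the 11 libraries.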

How the results depend on the processing

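With edgeR's RLE factors or DESeq2, counts of called members and of called pathway genes, both directions together, stayed within 1.5 times of those reported. By direction, DESeq2 called 8 members higher with WM1119 in R183W cells, not 5, and 3 pathway genes higher under vehicle, not 1. Over all genes DESeq2 called 975, not 649, for WM1119 in R183W cells, 1086, not 680, in WT cells, and 157, not 40, for the interaction. Direction was followed only for tested members and for pathway genes called or named. No call among them changed direction under any setting tried. Leaving out 1 library kept 2435 of 2620 single-gene results on the same side of the threshold, but most of these were not called to begin with. Of the rest, 159 lost a call and 26 gained one. Of 15 pairs of libraries with the same replicate number, 2 had a correlation of deviations over 0.1 (range -0.39 to 0.14). Pairs of unlike number were not compared, so whether the replicate number marks a pairing or batch was not tested. With the number as a replicate block, called members were 1 for WM1119 in R183W cells, 2 in WT cells and 0 for the interaction (4 at an unadjusted p under 0.05; DESeq2 1), and called pathway genes were 1 for WM1119 in WT cells, with 5 for genotype under vehicle; the counts of 20 and 11 members for genotype under vehicle and WM1119 stayed within 1.5 times. Without the filter, member medians were 0.22 for WM1119 in R183W cells, 0.09 in WT cells, 0.07 for the interaction, -1.35 for genotype under vehicle and -1.40 under WM1119, with more low genes tested, and pathway counts were 5 and 10 for WM1119 in R183W and WT cells and 10 for genotype under WM1119. With only the groups compared (fewer libraries and genes), member counts were 11 and 2 for WM1119 in R183W and WT cells and 7 for genotype under WM1119, whose median was -0.76; pathway counts were 11 and 1 for WM1119 and 13 and 2 for genotype under vehicle and WM1119. Calls over all genes moved in these fits too. For WM1119 in R183W and WT cells they were 261 and 287 with the block, not 649 and 680. They were 1110 and 1287 without the filter, and 2406 and 139 with only the groups compared. For genotype under vehicle and WM1119 they were 1189 and 678 with the block, not 1817 and 1197. They were 2380 and 1783 without the filter, and 2929 and 319 with only the groups compared. The cause of these shifts was not tested.

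Leaving out each library, member counts ranged from 0 to 11 and from 2 to 5 for WM1119 in R183W and WT cells, from 17 to 21 and from 6 to 18 for genotype under vehicle and WM1119, and from 0 to 1 for the interaction. Pathway counts ranged from 1 to 6, 1 to 10, 3 to 14, 2 to 14 and 0 to 0 in the same order; the 10 for WM1119 in WT cells came on leaving out WT WM1119 library 1, and the 1 on leaving out library 2 or 3 of WT vehicle, or library 2 of WT WM1119. For WM1119 in R183W cells 1 came on leaving out library 2 of R183W vehicle or any library of R183W WM1119, and 6 on leaving out WT WM1119 library 3. Medians ranged from 0.11 to 0.47, 0.13 to 0.22, -1.21 to -0.96, -1.24 to -0.72 (the last without WT WM1119 library 1), and -0.0319 to 0.24 for the interaction, negative without R183W WM1119 library 1, 0.10 without library 2 of that group and 0.12 without the second WT vehicle library. Without either R183W WM1119 library 38 members passed the filter rather than 34, so those medians mix the missing library with the added members. Calls over all genes moved too, for WM1119 in R183W cells from 649 to 1600 without WT WM1119 library 3. In WT cells they went from 680 to 1392 without WT WM1119 library 1, and to 260 and 247 without WT vehicle libraries 2 and 3. Depth limits the 14 members not tested and those near 0 in R183W cells.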
